A study of Mus musculus with 6 samples.

Results

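The genes described here are 57 transcription factor genes of the homeobox and Pax families outside the Hox clusters: the Pax, Nkx, LIM (Lhx and Isl1), Irx, Otx, Emx, En, Gbx, Msx, Dlx, Barx, Pitx, Gsc, Tlx and Meis members of a given list, together with Six2 and its relatives. For each, cytosines in the gene and in 2 kb on each side (mm10) were kept when each of the 6 libraries read them 10 times or more, and a gene was measured when it held 3 or more of them. That left 56 of the 57 genes, Dlx5 being the exception, against 12609 of 21631 protein-coding genes in all. The 56 genes held 1738 measured cytosines. A promoter window, from 1 kb before to 0.5 kb after the gene start, had 3 or more measured cytosines in 36 of the genes, and the gene body beyond it did in 50. The level of a region is the percentage of methylated reads, summed over its cytosines, and a gain is a level at least 10 percentage points above round spermatids.

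The assay was reduced representation bisulfite sequencing (RRBS), which cuts DNA with MspI, reads a size fraction after bisulfite conversion and so favours CpG-dense sequence. The libraries came from 2 wild-type (WT) and 3 double-knockout (DKO) lines of androgenetic haploid embryonic stem cells, whose chromosomes are all of paternal origin, and from 1 sample of round spermatids, male germ cells that have completed meiosis. All 6 libraries carry the strain label C57BL/6. The DKO lines are labelled with deletions of the H19 DMR and the IG-DMR, regions that control imprinted genes. The WT lines, WT1 and WT2 below, were at passage 31 and 18, and the DKO lines, DKO1, DKO2 and DKO3, at passage 32, 31 and 29. All lines were grown on feeder cells in medium with 2i, inhibitors of MEK and GSK3 that hold embryonic stem cells in a ground state. Whether the feeders were removed is not stated. Every line gave 1 library, and the labels do not say that lines come from separate embryos: WT1 and DKO2 share the line name OG3, and WT2 and DKO3 share AGH-2.

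Homeobox and Pax proteins bind DNA through a homeodomain, a paired domain or both, and they set regional identity in the embryo: which stretch of neural tube, limb, jaw, eye, heart or kidney a cell belongs to. Their genes lie in long CpG-rich stretches. In embryonic stem cells they are mostly silent and marked by Polycomb proteins, and such CpG islands are mostly free of DNA methylation, whereas some gain it in cultured and tumour cells. Sperm chromatin likewise keeps many of these islands unmethylated.

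A few promoters show what was read. In the RefSeq sequences below (GRCm38.p6, the 250 bases that precede each gene start, 5′ to 3′ on the gene's strand), capitals mark the CpGs measured in all 6 libraries. Pax5 and Barx1 are shown because a few of their CpGs were methylated in 1 line while their neighbours were not, and Gbx2 because none was. Pax5 lies on the minus strand at chr4:44710695-44710944, Barx1 on the plus strand at chr13:48662786-48663035, and Gbx2 on the minus strand at chr1:89931177-89931426.

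Pax5: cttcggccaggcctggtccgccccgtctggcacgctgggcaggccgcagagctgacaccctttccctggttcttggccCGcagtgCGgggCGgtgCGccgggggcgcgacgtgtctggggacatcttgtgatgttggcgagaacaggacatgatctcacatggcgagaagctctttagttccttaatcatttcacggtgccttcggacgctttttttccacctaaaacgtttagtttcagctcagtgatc

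Barx1: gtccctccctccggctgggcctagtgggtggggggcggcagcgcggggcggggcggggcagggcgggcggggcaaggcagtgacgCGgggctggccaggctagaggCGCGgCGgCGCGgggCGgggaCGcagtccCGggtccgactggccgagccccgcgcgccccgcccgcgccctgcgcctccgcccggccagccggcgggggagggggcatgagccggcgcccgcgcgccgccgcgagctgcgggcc

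Gbx2: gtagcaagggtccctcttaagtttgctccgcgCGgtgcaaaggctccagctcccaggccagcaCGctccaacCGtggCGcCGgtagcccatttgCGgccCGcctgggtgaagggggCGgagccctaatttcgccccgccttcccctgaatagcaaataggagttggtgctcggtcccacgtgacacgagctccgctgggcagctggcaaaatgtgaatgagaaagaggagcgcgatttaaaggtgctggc

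In Pax5, which directs B cell commitment, 4 of the 19 CpGs printed were measured, 171, 164, 159 and 154 bases before the start. The first and the last of them stood at 25.7% (374 reads, 95% Wilson interval 21.5% to 30.3%) and 26% (interval 21.7% to 30.8%) in DKO2, and no other library passed 2.8% at any of the 4. In Barx1, which patterns the stomach and the molar field, 9 of 40 CpGs were measured. The cytosine 143 bases before the start stood at 65% in DKO3 (interval 59.7% to 70%), and the CpG 2 bases further on stood at 0% in every library. In Gbx2, which positions the midbrain-hindbrain border, all 8 measured CpGs of 18 stayed at or under 1.2% in every library. Across all promoter sequences of the table used here, 34196 measured positions were found, and all of them fell on a CpG. A strand and a promoter sequence were at hand for 44 of the 57 genes. For the other 13, which include Pax3, Nkx2-6, Dlx3, Dlx4, Dlx6, Irx1, Irx5, Lhx5, En2, Otx1 and Pitx1, the window was put at the gene end with more measured cytosines, which can be the 3′ end. Windows were counted from the outer gene end, which in several members lies apart from a start in the table of promoter sequences. Dlx1 had no measured cytosine in its window, although 13 CpGs were measured in its promoter sequence. In Lhx3, CpGs before an inner start counted as body, with up to 25.5% in DKO2 and 28.1% in WT1. Counted from that table's start where it gave one, 40 members had a measured window, and 3 were gained in exactly 1 line. Exons and introns were not assigned.

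The libraries held 197728785 to 255726544 reads over cytosines in the lines and 293920118 in round spermatids. The mean level over the 232840 cytosines of all 6 libraries was 4.12% to 8.08% in the lines, highest in WT1 and DKO2 (7.24%), and 22.4% in round spermatids. Methylation bears only indirectly on cell type. Of the pluripotency markers, 4 of 13 had a measured promoter (Zfp42 at 0% in all libraries), with a mean level of 0.0154% to 0.207% in the lines. Their mean was 1.8% in round spermatids, where Utf1 stood at 7.13%. Of the germline genes that somatic cells methylate, 5 of 10 were measured, at 7.81% to 16.9% in the lines and 0.143% in round spermatids. Single genes ranged from 0.0246% (Mael in DKO1) to 40.3% (Taf7l in DKO3) in the lines. For feeder fibroblasts 4 of 10 markers were measured, with means of 2.78% to 15.3% in the lines. They were split: Vim and Twist1 stayed at or under 0.157%, Twist2 stood at 7.83% to 15.7%, and Pdgfrb at 0.134% to 52.2%. For spermatids 2 of 9 were measured, at 1.34% to 14.2% (round spermatids 0.172%). Tnp1 stood at 2.57% to 28.3% in the lines, and Tssk6 did not pass 0.344% in any library. For testis somatic cells 2 of 8 were measured (Amh and Clu), at 4.62% to 11.6% in the lines. In round spermatids Clu stood at 100% and Amh at 0.00947%. The share of feeder DNA was not measured, and its part in the results below was not tested. Intervals cover counting error only: the reads come from PCR with no molecular identifiers described, so they are not independent molecules, and a read that spans several cytosines counts at each, so they are too narrow.

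Promoter windows of the members were close to unmethylated in most libraries. In 19 of the 36 windows all 6 libraries stood under 1%, and in 35 of 36 the round spermatid level did. Over all genes the same held for 6542 and 7605 of 7976 windows. Averaged over the 36 windows, levels were 0.627% and 0.527% in WT1 and WT2, 0.72%, 3.03% and 0.375% in DKO1, DKO2 and DKO3, and 0.503% in round spermatids. DKO2 stood apart in this mean, while the median window was at 0.021% to 0.043% in all 6 libraries. Over all 7976 measured promoter windows the same means were 0.448% to 0.992% in the lines, with 0.815% in DKO2, and 1.41% in round spermatids. No member's promoter was 25 points or more higher in round spermatids than in the mean of the lines, against 1.34% of all windows. The 36 members' windows held between 3 and 36 measured cytosines.

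**Figure D1:**
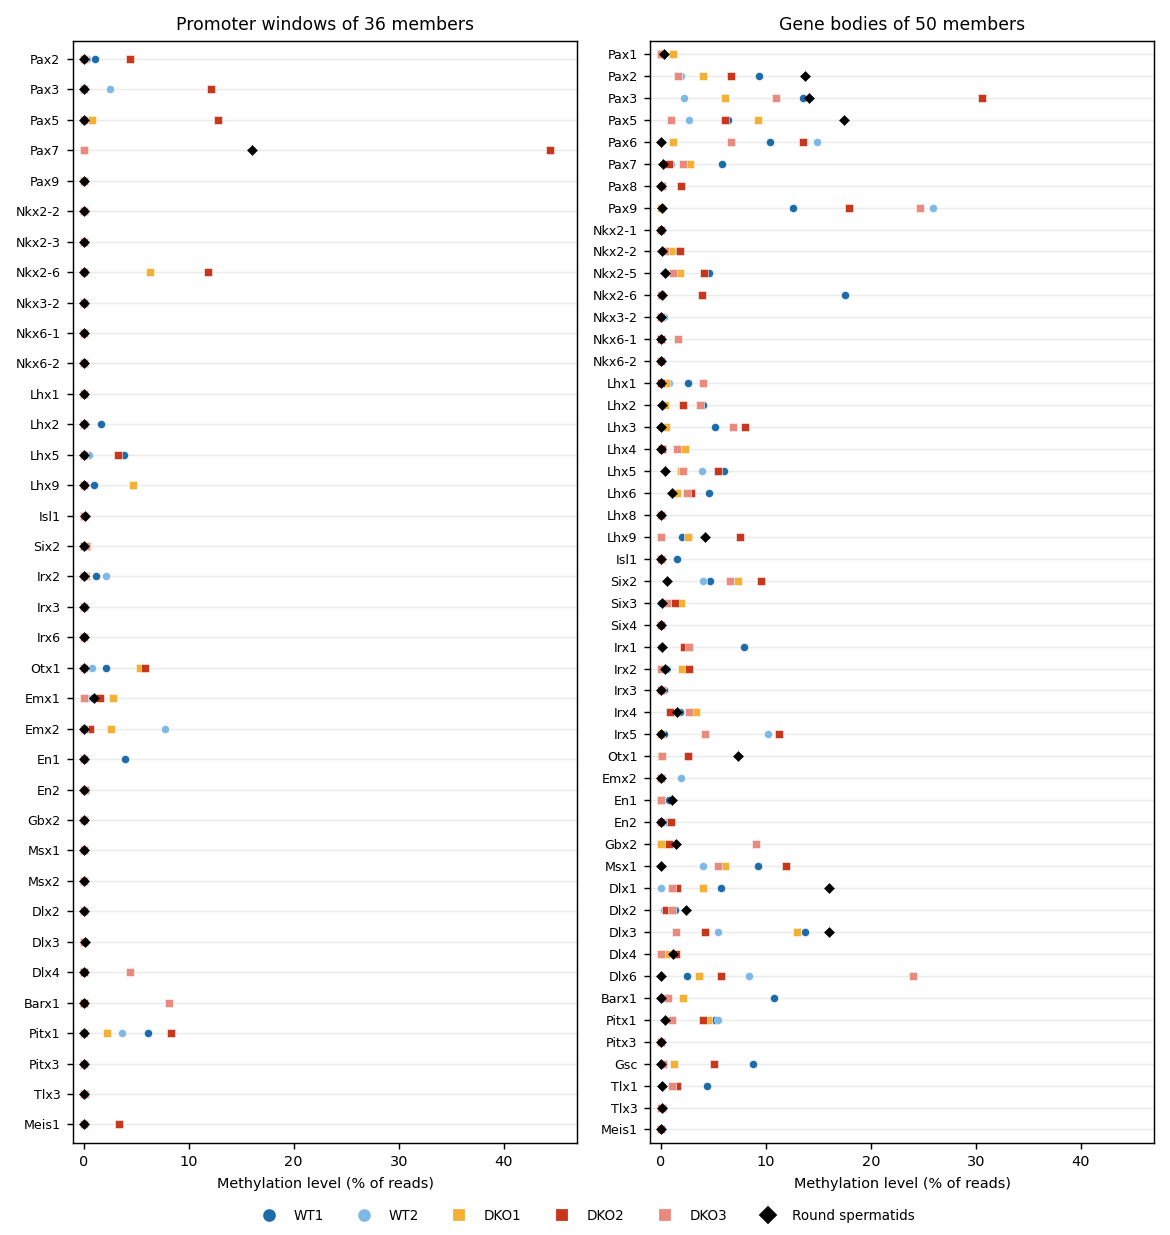
Methylation level (% of reads) of each member's promoter window (left, 36 genes) and gene body (right, 50 genes), 1 point per library, ordered by gene family, with points at the same level drawn over each other and round spermatids on top. Promoter points sit near 0 except for single lines, such as DKO2 at Pax7 (44.4%), while the bodies spread up to 30.6% in the lines (Pax3).

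A promoter window was gained in exactly 1 line in 4 of 36 members (11.1%), Pax3, Pax5, Pax7 and Nkx2-6, and in each the line was DKO2. Over all genes 1.79% of windows were gained in exactly 1 line, 3.03% in at least 1 line and 1.32% in DKO2. For the members the count in at least 1 line was 4 as well. DKO2 is set apart here because the members' gains fell in it. Of 51 other homeobox genes with a measured window, 2 were gained in exactly 1 line, 3 in at least 1 line and none in DKO2. No test is possible here, since each line and the round spermatids are a single library. In Pax3 and Pax7 1 cytosine held all methylated reads of DKO2, in Pax5 the top cytosine held 51.1% of them and in Nkx2-6 33.4%. Once the top cytosine of each window was left out in each line, no member's promoter reached 10 points. Pax5 and Nkx2-6 still exceeded round spermatids by 8.38 and 9.48 points in DKO2. Leaving out the cytosine with most methylated reads tends to lower a level in itself, and this count was not made over all genes.

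**Figure D2:**
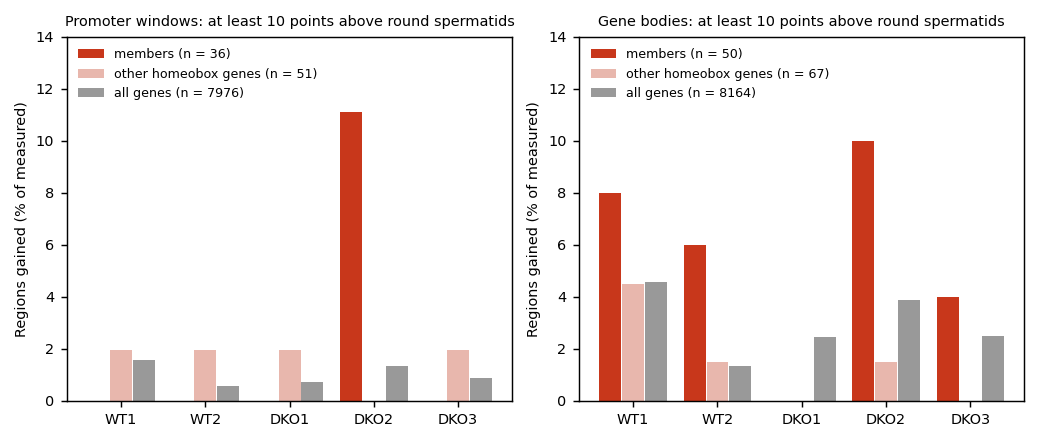
Percentage of measured promoter windows (left) and gene bodies (right) that stood at least 10 points above round spermatids, for each line, in the members, in other homeobox genes and in all genes. Members' promoters were gained in DKO2 alone (11.1%, all genes 1.32%), while their bodies were gained in 4 of the 5 lines.

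Pax3, which acts in neural crest and in muscle precursors, stood at 12.1% in DKO2 (interval 11.1% to 13.3%) and 2.55% in WT2. The other 3 lines had no methylated read in this window, which allows up to 0.172%, and round spermatids stood at 0.0107%. DKO2 was thus the highest library, and the DKO and WT lines overlapped, since DKO1 and DKO3 were at 0%. All of the signal came from 1 of the 6 cytosines, 317 bases inside the gene end (chr1:78196819): 72.9% of 557 reads were methylated there in DKO2 (interval 69.1% to 76.4%) and 15.3% in WT2. The cytosine 3 bases away stood at 0% in all libraries.

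Pax7, which marks muscle satellite cells and dorsal neural tube, stood at 44.4% in DKO2 (interval 39.5% to 49.3%) and at 16% in round spermatids. The other 4 lines lay at or under 0.0559%, so that a single line exceeded the germ cells and the rest were below them. The window had only 3 measured cytosines, and 1 of them, 566 bases before the gene start, carried the signal: 60.9% of 284 reads in DKO2 (interval 55.1% to 66.4%), 22.8% in round spermatids and 0% in the other lines. The promoter table starts Pax7 further inside the gene, and with that start this cytosine falls outside the window and DKO2 exceeded round spermatids by 0.0468 points. With each cytosine weighted equally the gain was 12.6 points.

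Pax5 stood at 12.8% in DKO2 (interval 11.2% to 14.6%), 0.768% in DKO1, 0.0897% in WT2 and 0% in WT1, DKO3 and round spermatids, where 0 methylated reads allow up to 1.23% in the shallowest of them. Both outer CpGs of the 4 shown above carried it.

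Nkx2-6, expressed in the pharyngeal pouches and the early heart, stood at 11.8% in DKO2 (interval 10.7% to 13%) and 6.34% in DKO1. WT2 was at 0.0821%, and WT1, DKO3 and round spermatids were at 0%, though DKO3 had only 88 reads here, which allows up to 3.41%. In this gene 4 of 6 cytosines reached 10% or more in DKO2, the highest at 23.4% (interval 20% to 27.3%). In DKO1 only the cytosine 399 bases inside the gene end did, at 39.1% (interval 35.8% to 42.6%). Like that of Pax3, this window is at the gene end with more measured cytosines.

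**Figure D3:**
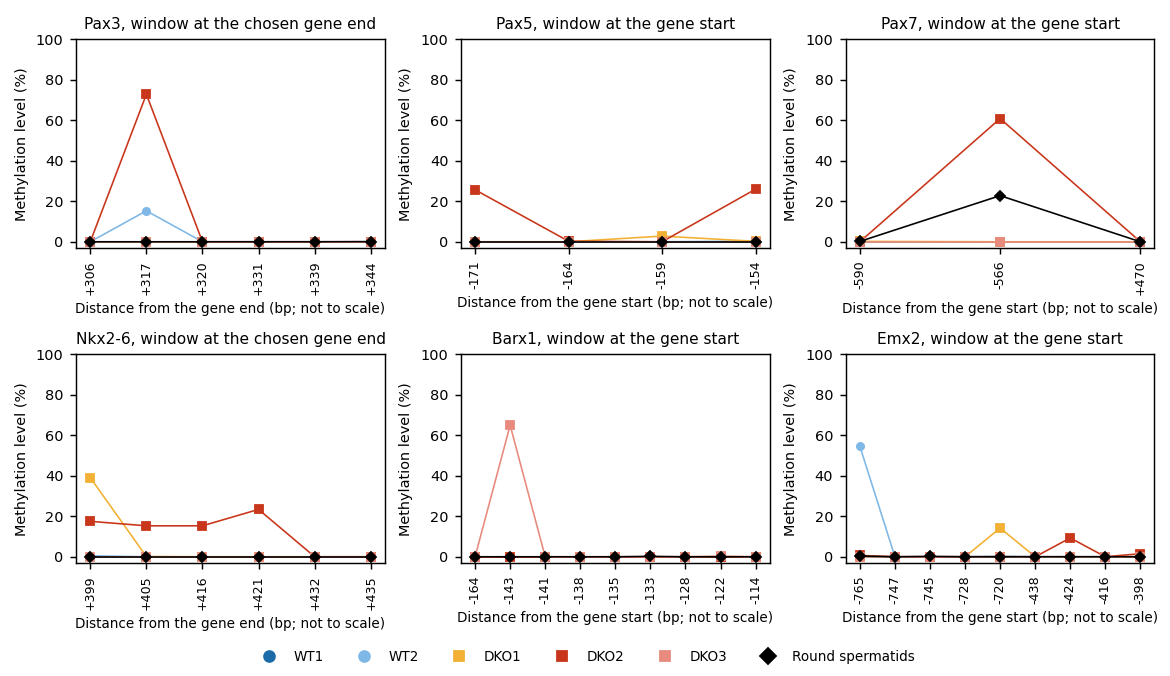
Methylation level (%) of each measured cytosine in 6 promoter windows against its distance from the gene start, or for Pax3 and Nkx2-6 from the gene end chosen for its cytosines (bp, evenly spaced and not to scale), 1 line per library with round spermatids on top. Single cytosines stand out, as in Pax3 (72.9% in DKO2) and Barx1 (65% in DKO3), between neighbours at or near 0%.

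The remaining promoter windows stayed under the 10 points. Nearest to it were Pitx1, a hindlimb and pituitary factor, which exceeded round spermatids by 8.21 points in DKO2, Barx1, by 8.14 points in DKO3, and Emx2, by 7.67 points in WT2. Nkx2-6 and Pax3, at 11.8 and 12.1 points, lay just inside. Barx1 was at 0% in the other 4 lines, with up to 0.347% allowed, and at 0.0235% in round spermatids, and its level rested on the CpG shown above. Emx2, which patterns the cerebral cortex and the urogenital tract, stood at 7.72% in WT2, 2.61% in DKO1, 0.564% in DKO2, 0.0204% in WT1, 0.0185% in DKO3 and 0.0498% in round spermatids. Its signal in WT2 came from the cytosine 765 bases before the start, at 54.6% (interval 50.7% to 58.3%), and in DKO1 from another, 720 bases before it, at 14.2%.

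Pitx1 differed from these in being above round spermatids in 4 of 5 lines. It stood at 6.13% and 3.61% in WT1 and WT2, at 2.27%, 8.29% and 0.0314% in DKO1, DKO2 and DKO3, and at 0.077% in round spermatids. Otx1, a forebrain factor, had 5.38% and 5.85% in DKO1 and DKO2, 2.18% and 0.796% in the WT lines, 0.0293% in DKO3 and 0.0566% in round spermatids. In both genes WT and DKO lines overlapped. DKO3 was the lowest line in both. Both windows were put at the gene end with more measured cytosines, which may not be the gene start.

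The other families had lower maxima. Among LIM genes the highest promoter was Lhx9, a gonad and limb factor, at 4.68% in DKO1, followed by Lhx5, a forebrain factor, at 3.85% in WT1 and 3.24% in DKO2. En1, which acts at the midbrain-hindbrain border and in ventral limb, reached 3.96% in WT1 alone, the other 4 lines lying at or under 0.0263%. Meis1, a cofactor of Hox proteins, reached 3.33% in DKO2. Dlx4 reached 4.4% in DKO3 (interval 2.83% to 6.77%), with a library as shallow as 60 reads in this window. Six2, which keeps nephron progenitors, did not pass 0.293% in any line. Nkx2-2, Nkx6-1, Msx1, Msx2, Dlx2, Irx3, Isl1, Tlx3 and Pitx3, which act among other places in ventral neural tube, limb, tooth, heart, sensory neurons and lens, stayed at or under 0.148% in every library. Lhx1, Lhx5, En2, Msx2 and Nkx6-2 were the 5 of 36 promoters (13.9%) with all 5 lines above round spermatids, against 7.64% of all windows, and apart from Lhx5 no level among them passed 0.128%. The windows of Lhx5, En2 and Dlx4 were put at the gene end with more measured cytosines, which may not be the gene start.

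Gene bodies were higher and more uneven. Averaged over the 50 members' bodies, the WT lines stood at 3% ± 1.2 (SD, n = 2). The DKO lines stood at 2.72% ± 0.906 (SD, n = 3), so that the groups differed by less than their SDs, and round spermatids at 2.03%. Over all 8164 bodies the WT lines averaged 8.72% ± 4.07 (SD, n = 2), the DKO lines 8.49% ± 1.74 (SD, n = 3) and round spermatids 31.5%. None of the 50 members' bodies was 25 points or more higher in round spermatids than in the mean of the lines, whereas 33.6% of all bodies were. In 18 of 50 (36%) all 5 lines exceeded round spermatids, against 5.54% of all bodies and 9 of 67 in other homeobox genes. The median over members of the mean of the lines minus round spermatids was 0.507 points, and over all genes it was -2.85 points. Members' bodies were low in round spermatids, under 1% in 37 of 50, against 2843 of 8164 for all genes, and this difference in starting level was not adjusted for in these counts.

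**Figure D4:**
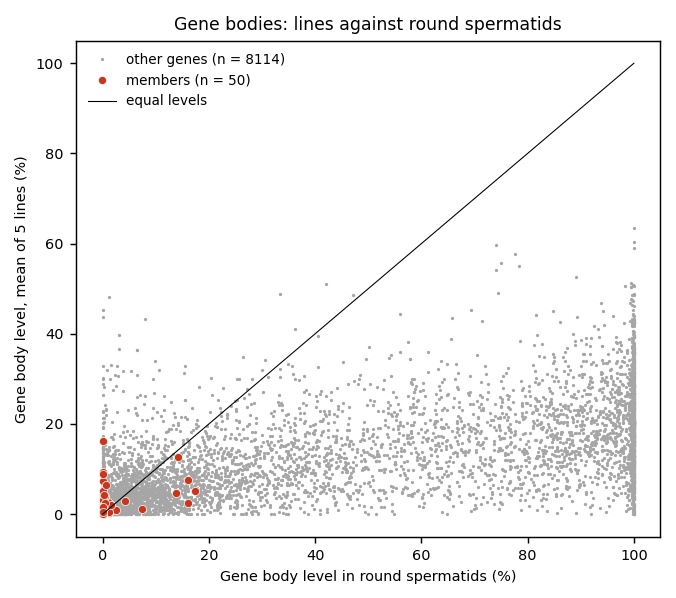
Mean gene body level of the 5 lines (%) against the level in round spermatids (%), 1 point per gene, with members in red, all other genes in grey and a line at equal levels. Members lie at the lower left, none above 17.4% in round spermatids, while other genes extend to 100%.

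A gene body was gained in exactly 1 line in 5 of 50 members (10%, all bodies 5%) and in at least 1 line in 8 (16%, all bodies 8.65%). Among bodies under 10% in round spermatids the counts were 4 of 45 members in exactly 1 line (8.89%, all such bodies 6.46%) and 7 of 45 in at least 1 (15.6%, all such bodies 12.3%), closer to the background. By line, WT1 and WT2 gained 4 and 3 members' bodies, DKO1, DKO2 and DKO3 gained 0, 5 and 2. Those are 8%, 6%, 0%, 10% and 4% of the members, against 4.56%, 1.35%, 2.47%, 3.87% and 2.5% of all bodies in the same order. In the other homeobox genes 3 of 67 bodies were gained in at least 1 line.

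Pax9, which acts in pharyngeal pouches, teeth and vertebrae, was gained in 4 lines. Its body stood at 12.6% and 25.9% in WT1 and WT2, at 0%, 17.9% and 24.7% in DKO1, DKO2 and DKO3, and at 0.0903% in round spermatids. DKO1 was the exception, where 0 methylated reads allow up to 0.0865%, and WT and DKO lines overlapped. The 4 measured cytosines fell into 2 pairs. The pair 8689 and 8701 bases after the start stayed at or under 0.269% in all libraries. Of the other pair, 22 bases apart, the cytosine at chr12:56709893 stood at 33.9% in WT1, 73.2% in WT2 (interval 69.6% to 76.5%), 25.3% in DKO3 and 0% in DKO1 and DKO2. The cytosine at chr12:56709915 stood at 46.2% in DKO2 (interval 42.2% to 50.3%), 25.2% in DKO3 and 0% in the other lines. Of this pair, WT1 and WT2 were methylated at the first only, DKO2 at the second only and DKO3 at both. With the 2 kb on each side added, the gain of WT2 came to 10.9 points.

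Pax6, the eye and forebrain regulator, was gained in 3 lines. Its body stood at 10.4% and 14.9% in WT1 and WT2, at 1.14%, 13.5% and 6.73% in DKO1, DKO2 and DKO3, and at 0.0602% in round spermatids. All 5 lines lay above round spermatids, and the WT and DKO lines overlapped. WT2 had 86.5% of 446 reads at chr2:105673760 (interval 83.1% to 89.4%), where every other library was at or under 0.862%. DKO2 had 56.5% and WT1 had 50.8% at chr2:105680274, where the other 3 lines were at 0%. DKO3 had 47.9% at chr2:105690600 (interval 42.3% to 53.5%), where WT1, DKO1 and DKO2 had 16.9%, 11.3% and 7.52%. WT2 and DKO2 shared chr2:105669999, at 44.6% and 38.1%, where the other libraries were at 0%. Without DKO3, 15 cytosines met the read minimum and WT2 then stood 0.314 points lower than round spermatids.

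Irx5, which acts in heart and retina, was gained in WT2 (10.2%) and DKO2 (11.3%, interval 9.96% to 12.8%). DKO3 stood at 4.17%, WT1 at 0.318%, DKO1 at 0.0652% and round spermatids at 0%. Its 4 cytosines lie within 8 bases, and the highest was 34.6% in WT2 and 23.4% in DKO2, at different cytosines. Leaving out WT1 or WT2 let further cytosines into the body, and the gain of DKO2 then came to 2.63 or 5.14 points. It was 9.7 points with each cytosine weighted equally and 2.11 points with the 2 kb on each side added.

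Msx1, a tooth, palate and limb factor, held methylation in every line. Its body stood at 9.3% and 3.98% in WT1 and WT2, at 6.14%, 11.9% and 5.42% in DKO1, DKO2 and DKO3, and at 0.0419% in round spermatids. All 5 lines exceeded round spermatids, DKO2 alone by 10 points or more, and WT and DKO lines overlapped. At the cytosine chr5:37823420 the lines had 25.3%, 2.18%, 19.8%, 19.2% and 14.7% in the same order, and round spermatids 0.0717%. With the 2 kb on each side added, the gain of DKO2 was 4.11 points.

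Dlx6, a jaw and limb factor, was highest in DKO3. Its body stood at 24% there (interval 21.2% to 27.2%), at 2.52% and 8.38% in WT1 and WT2, at 3.67% and 5.73% in DKO1 and DKO2, and at 0.0596% in round spermatids. In DKO3 a single cytosine of 7 held all methylated reads (59.1% of 318, interval 53.6% to 64.4%), and with each cytosine weighted equally the gain was 8.37 points. Barx1 reached 10.8% in WT1 (interval 10.2% to 11.4%), against 0.259% to 2.16% in the other lines and 0.0277% in round spermatids. Its body gain was thus in another line than the CpG of its promoter, and 5 of its 15 body cytosines reached 10% in WT1. That gain was 5.8 points with equal weights and 9.86 with the 2 kb on each side. The Nkx2-6 body reached 17.5% in WT1 (interval 14.1% to 21.6%), with 3.91% in DKO2 and at most 0.0714% in the other lines, from 1 of 4 cytosines, and its gain was 7.59 points with equal weights and 3.88 with the 2 kb on each side. Just outside the 10 points lay Six2 (8.98 points, DKO2), Gsc (8.69 points, WT1) and Lhx3 (8 points, DKO2). Six2 was above round spermatids (0.571%) in all lines, with 4.66% and 4.03% in WT and 7.31%, 9.55% and 6.6% in DKO1, DKO2 and DKO3.

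The Pax3 body held methylation in round spermatids too. It stood at 30.6% in DKO2 (interval 27.8% to 33.6%), 13.5% and 2.18% in WT1 and WT2, 6.08% and 11% in DKO1 and DKO3, and 14.1% in round spermatids. Only DKO2 exceeded the germ cells. The 7 cytosines behind these levels were of opposite kinds. Between 30614 and 30657 bases inside the gene, 3 cytosines were at 97.5% to 100% in round spermatids and at 0% to 47.8% in the lines. Near the gene end, 4 cytosines were at 0% in round spermatids, and among them DKO2 had 41.7% and 50.7% at neighbours 25 bases apart, the first of which also had 92% in WT1 (25 reads, interval 75% to 97.8%). WT2 lacked reads at 3 further cytosines of Pax3, 47339 to 47378 bases inside the gene, where the other 5 libraries had 33 to 287 reads each. Round spermatids were at 92.5% to 98.9% there and the 4 lines with reads at 0% to 69.7%. These 3 cytosines enter no level above, and without WT2 they join the body, which then stood 3 points lower in DKO2 than in round spermatids. With each cytosine weighted equally the body stood 14.6 points lower in DKO2.

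The members with the largest surplus in round spermatids over the mean of the lines were Dlx1, Pax5, Pax2, Dlx3 and Otx1. Dlx1, a forebrain interneuron factor, stood at 16% in round spermatids, while the lines averaged 2.47% ± 2.33 (SD, n = 5), from 0.0266% in WT2 to 5.71% in WT1. The Pax5 body stood at 17.4% in round spermatids, the highest of any member, and at 0.94% to 9.21% in the lines. Pax2, a kidney and ear factor, had 13.7% in round spermatids, and its lines averaged 4.71% ± 3.3 (SD, n = 5). Dlx3 had 16% in round spermatids, close to 13.7% in WT1 and 13% in DKO1 and above 1.46% in DKO3. Otx1 had 7.34%, with at most 2.7% in any line. In these 5 bodies every line was lower than the round spermatids.

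At the level of single cytosines, 1664 of the 1738 (95.7%) were under 10% in round spermatids, and 52 (2.99%) were at 90% or more, against 15.2% of cytosines over all genes. Of the 1664, 153 (9.19%) stood 25 points or more above round spermatids in at least 1 line and 120 (7.21%) in exactly 1 line, against 4.53% and 3.04% of such cytosines over all genes. The other 33 comprised 26 gained in 2 lines and 7 in 3 lines, and none was gained in 4 or 5. Over all genes, of 7093 gained cytosines, 1512 were gained in 2 lines, 584 in 3, 197 in 4 and 45 in 5. By line the counts were 46 and 20 in WT1 and WT2 and 34, 57 and 36 in DKO1, DKO2 and DKO3. The share was above that of all genes in each line, for example 3.43% against 1.7% in DKO2 and 1.2% against 0.812% in WT2. Gained cytosines occurred in 40 of 56 members (71.4%), against 27.1% of all genes, and members held more measured cytosines, with a median of 25.5 a gene against 14. They made up 118 of 1050 such cytosines in bodies (11.2%), 19 of 472 in promoter windows (4.03%) and 16 of 142 in flanks (11.3%). Shares by region were not computed over all genes, so the comparisons with all genes above are not matched for the mix of regions. Lhx5 had the most, 12 of its 75 cytosines, followed by Pitx1 with 10 of 54 and Pax2 and Pax7 with 9 each.

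Gained cytosines mostly stood alone. For 132 cases of a gained cytosine with a measured neighbour within 20 bp in the same line, the neighbour had gained under 10 points in 99 (75%), and the median neighbour level was 0%. Over all genes that share was 62% and the median 5.22%. By comparison, 28 of the 31 members' cytosines at 90% or more in round spermatids with such a neighbour (90.3%) had that neighbour at 90% or more as well. That was close to the share over all genes, 12557 of 13983 (89.8%). Some pairs did move together. In Tlx1, chr19:45153507 and chr19:45153510 both stood at 38.9% in DKO2, and in Irx1, chr13:71960017 and chr13:71960019 stood at 27.8% and 27.5% in WT1. A pair in Gbx2 did so in DKO3 but not in WT2. In DKO3 the cytosines chr1:89928771 and chr1:89928774 stood at 99.7% and 62.9%, and in WT2 the second stood at 67.9% while the first was at 0% of 76 reads. In the Irx4 body, Irx4 being a ventricular heart factor, chr13:73261399 stood at 68.2% in WT1, 97.5% in DKO1, 100% in DKO3 and 0% in the other lines and round spermatids. In Lhx9, chr1:138848037 stood at 64.4% in WT2, 100% in DKO1 and 0% elsewhere. In Pax2, chr19:44815246 stood at 28.6%, 45.5% and 50.8% in DKO1, DKO2 and DKO3, under 1% in both WT lines and at 2.68% in round spermatids, and it was the only cytosine of the 7 gained in all 3 DKO lines and in no WT line. That cytosine was picked out after its values were seen. Where members were methylated at 90% or more in round spermatids (52 cytosines), the lines averaged 27.9% and 11.6% in WT and 15%, 16.7% and 9.4% in DKO1, DKO2 and DKO3. Over all genes the means at such cytosines were 26.2%, 13.7%, 17.2%, 24% and 16.9% in the same order.

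DKO and WT lines were compared over all regions with edgeR's quasi-likelihood test on methylated and unmethylated reads, with Benjamini-Hochberg adjustment. With 2 against 3 lines an exact permutation test cannot go below 0.1, so this fit pools the spread over regions. The fit used cytosines with at least 10 reads in all 5 lines and left out windows without variation. None of 7720 promoter windows passed an adjusted p of 0.05 (0%), and 2.68% had an unadjusted p under it. Among 35 members none passed and 3 had an unadjusted p under the threshold. Irx2, a heart and limb factor, had a log2 odds ratio of DKO over WT of -4.62 (edgeR adjusted p = 0.967), with 1.21% and 2.17% in the WT lines and 0.243%, 0.0706% and 0% in the DKO lines. The groups did not overlap. Nkx2-6 and Pax5 had log2 odds ratios of 6.75 and 5.52 with the same edgeR adjusted p of 0.967, and in both the WT lines overlapped with DKO3. With the shared line names OG3 and AGH-2 as a block, Irx2 passed (edgeR adjusted p = 0.0415), 1 of 16 windows called over all genes by that fit. The block spends a further term on each of the 2 names with only 5 lines, which leaves little to estimate the spread from. DKO1 has no WT line of the same name. The Irx2 window, chr13:72623430-72624930 at the outer gene end, does not reach the start in the table of promoter sequences, chr13:72628820.

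For gene bodies none of 8865 passed in edgeR (0%), 2.52% had an unadjusted p under 0.05, and of 49 members none passed by either measure. Limma on log2 odds called none in either region, with 4 members under an unadjusted 0.05 in promoters, where 346 of 7720 windows were, and 0 in bodies, where 311 of 8865 were. Promoter levels of DKO and WT lines did not overlap in 7 of 36 members, 4 higher and 3 lower in DKO, or 19.4% against 16.5% of all windows. In bodies they did not overlap in 4 of 50 (8%), against 15.6% of all bodies: Six2, Lhx4 and Pax8 were higher in all DKO lines and Pitx1 was lower.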

How the data were processed

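Genomic DNA of 2 WT lines, 3 DKO lines and 1 round spermatid sample was digested with MspI, joined to methylated adapters, selected by size, treated with bisulfite and amplified, per the labels' protocols. Alignment with Bismark 0.12.2 to mm10 is named in the submitters' processing notes, and trimming and duplicate removal are not given there. The authors deposited 1 file per library. For every cytosine it lists the methylated count, the unmethylated count and their ratio as a fraction, and the deposited fraction matched the counts. Per library, the deposited counts sum to 197728785 to 293920118 reads over cytosines, with a median depth of 364 to 503 at shared cytosines.

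Only cytosines of chromosomes 1 to 19 and X with at least 10 reads in all 6 libraries were used. Genes and starts came from RefSeq (GRCm38.p6): the end of a gene is its start by the strand of the promoter table, or, without a strand, the end with more measured cytosines. Levels were computed from summed counts where a region had 3 or more cytosines. Wilson intervals are at 95%, and a count of 0 was given the limit of 3 counts. Members, lists and thresholds were chosen with earlier results of these data known. The genes named were those with a gain of 10 points in a promoter or body, those called between DKO and WT, the 5 with the largest body surplus in round spermatids, the highest promoter of each family, and Pax3. Other members were named beyond that rule after their values were seen. DKO and WT lines were compared with edgeR 4.0.16 in R 4.3.3 (common dispersion, a term for each library) and limma 3.58.1, after tests on simulated data. Since the labels do not name separate embryos, p-values cover the spread between these lines only. WT1 with DKO2, and WT2 with DKO3, were paired in a further fit by the line names in their titles. Alternatives changed the read minimum, the cytosine minimum, the size of a gain, the averaging, the window, the lines used and the model. The use of the promoter table's start, of genes with a strand only, and of windows without their top cytosine was chosen after seeing the data.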

Additional observations from a re-analysis of the deposited data

Results flagged for a closer look

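Outside the promoter windows and gene bodies, or in windows with under 3 measured cytosines, 8 regions of the members stood at least 10 points above round spermatids in a line, and they enter no count of windows or bodies, although those of their gained cytosines that were under 10% in round spermatids are among the 153 counted singly. The same count was not made over all genes, so whether 8 is many cannot be told. Flanks with 3 or more measured cytosines averaged 5.05% in the lines for 14 members and 5.14% for 1343 genes in all. In round spermatids they averaged 7.23% and 19.1%. In the flanks, Nkx2-2 stood at 34.8% in DKO2, 32.5% and 25.8% in WT1 and WT2, 21.4% in DKO1, 0.895% in DKO3 and 0.0678% in round spermatids (3 cytosines). Six6, an eye and pituitary factor, stood at 24.1% in DKO1 and 22.1% in DKO2, at most 0.156% in the other lines and 0.0719% in round spermatids (12 cytosines). The Dlx1 flank stood at 20.1% in DKO2 and 3.3% in WT1, with 0.0431% in round spermatids. The flanks of Gbx2 and of Otx2, a head organiser factor, each stood at 12% in WT1 and at 0% in round spermatids, and in the other lines Gbx2 reached 5.38% and Otx2 0.208%. With only 2 cytosines each, the En1 flank stood at 10.3% in WT1 and 0% in every other library, and the Emx2 flank at 70.2% in WT1 and 30.2% in DKO2 against 50.4% in round spermatids. The Irx1 promoter window, also of 2 cytosines, stood at 30% in DKO1 (interval 27.5% to 32.6%), at most 0.203% in the other lines and 0% in round spermatids. That window was put at the gene end with more measured cytosines, which may not be the gene start. The causes were not tested.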

How the results depend on the processing

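The count of 4 members with a promoter gained in exactly 1 line became 2 with at least 20 reads, 2 with at least 5 cytosines, 2 with only genes that have a strand, 1 with a gain of 25 points and 0 without the top cytosine. Leaving out 1 line gave 0 (without DKO2) to 5. All 4 gains were in DKO2, so they could not be counted without it. Without another line they could change only through newly measured cytosines. The count of 5 gene bodies became 1 with a gain of 25 points, 2 with the mean of cytosine levels, 3 with at least 5 cytosines, 2 with only genes that have a strand, 1 without the top cytosine, and 3 to 7 leaving out 1 line. These counts need not hold the same genes as the 5, which were Pax3, Msx1, Dlx6, Barx1 and Nkx2-6. With a gain of 25 points and without the top cytosine the body was Pax9, so none of the 5 remained. With the mean of cytosine levels the bodies were Msx1 and Irx5. The other alternatives kept both counts within 1.5 times. With the line-name block, 1 member's promoter (Irx2) was called between DKO and WT where 0 were without it. No body was called under it, and no fit without 1 line called a member in either region. Over 12 gains named in the report and 109 alternatives that can change a level, 74 moved by no more than the margin of the highest line's Wilson interval. Of the rest, 27 moved further and 8 changed sign. That margin, to either side of the interval's centre, covers counting error in 1 library and not the spread between lines. In 26 of the 109 the gain fell below 10 points. Each gain is 1 line against round spermatids, so leaving out another line can move it only where further cytosines then meet the read minimum. Runs of that kind in which no cytosine was added are among the 74. The Pax3 body in DKO2 stood -14.6 points from round spermatids with the mean of cytosine levels and -3 without WT2, which adds 3 cytosines, and leaving out 1 line gave -3 to 16.5. The Pax6 body in WT2 stood at -0.314 points without DKO3 and up to 14.8 without another line. Without the top cytosine, the Pax3 and Pax7 promoters stood at -0.0128 and -0.175 points, and the Dlx6, Pax9 and Nkx2-6 bodies at -0.107, -0.108 and -0.251. The causes were not tested. Depth limited few promoter windows: 0 methylated reads allowed up to 5% in Dlx4, 3.41% in Nkx2-6 and 2.27% in Pax9. The limits were lower in the other measured windows, next in Six2 with 2.17%.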
